A study of Mus musculus with 20 samples.

Results

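Lungs of mice given prednisone were compared with lungs of an asthma model without a drug. The 5 prednisone libraries were taken by the treatment label "Prednisone group" (for replicate 5 the title was used, since its treatment label carries another replicate number), and the 5 model libraries by the label "model". These are 10 of the 20 libraries of the series, and all genes were compared. Both groups are lung tissue of mice of genotype wt. The group names and title are read here as prednisone given to mice of the model, which the labels do not state outright. The other groups, used for the shared estimate of spread and for a few levels set side by side, are mice given SMD (Shegan-Mahuang Decoction, a herbal formula) and a control group, each with 5 libraries. The design text gives 15 mice per group. The strain, sex and age of the mice, the way the model was made, the dose of prednisone and all times are missing from the sources used here. Nothing says that the 5 libraries of a group came from 5 animals. The p-values therefore measure the spread between libraries, and that spread may be technical.

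Prednisone is a synthetic glucocorticoid that the body converts to prednisolone, the form that binds the glucocorticoid receptor (gene Nr3c1). The bound receptor moves to the nucleus, where it induces genes such as Fkbp5, Tsc22d3 and Per1 and restrains inflammatory transcription. In asthma, glucocorticoids are used against type 2 airway inflammation, in which the cytokines interleukin 4, 5 and 13, eosinophils, immunoglobulin and mucus take part. Glucocorticoids also act on the circadian clock of many tissues.

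Levels are given in FPKM (fragments scaled to gene length and to the library's mapped fragments, as deposited), and differences as log2 fold changes of FPKM + 1, prednisone over model. Their standard error (SE) is that of the fit, with 1 estimate of spread shared by all 20 libraries. It is not the spread of the prednisone and model libraries alone, which can be wider where prednisone libraries spread widely. The added 1 makes the log2 fold changes understate the change of genes with low levels. Summed FPKM ranged between 377639 and 412119 in prednisone libraries, against 406726 to 446711 in model libraries. Prednisone replicates 2, 3 and 5 lay under every model library. Scgb1a1, the secretoglobin of airway club cells, took 9.11% to 13.8% of the sum in prednisone libraries and 9.31% to 12.2% in model libraries, and was lowest in those same 3 prednisone libraries among the 5. Lung markers were present in all 10 libraries: Scgb1a1 was at 34400 FPKM or more and Sftpc, surfactant protein C of alveolar type 2 cells, at 11510 FPKM or more. Read depth is unknown because FPKM values hold no counts, and the precision is that of the replicate spread, with a median SE of 0.105.

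Of 15106 genes tested, 138 (0.914%) were higher in the prednisone libraries and 1077 (7.13%) were lower, 1215 (8.04%) in all (limma, adjusted p under 0.05 after Benjamini-Hochberg adjustment over all genes tested). Of the called genes named here, those that rose furthest encode interferon-inducible GTPases. Outside the immunoglobulin genes, the called gene that fell furthest was Dbp, a transcription factor of the circadian clock. For 1145 genes (7.58%) the 5 prednisone libraries all lay on one side of the 5 model libraries, with prednisone higher for 136 (0.9%) and lower for 1009 (6.68%), and 735 genes met both criteria, of which 62 rose and 673 fell. Most changes were small: 17 called genes had a log2 fold change above 1 and 9 one below -1, and the median over all genes was -0.05. The surplus of falls depended on scaling. Of all calls 11.4% were rises without further scaling, 29.2% with median-of-ratios scaling (204 rose, 495 fell), 47.1% with quantile normalization (153 rose, 172 fell) and 29.3% after a correction for gene length and GC content (122 rose, 294 fell). The number that rose was 70, 66 and 257 without model replicates 2, 3 and 4, and 84 and 76 without prednisone replicates 2 and 3. The number that fell was 665, 538 and 570 without model replicates 1, 2 and 3, and 691 without prednisone replicate 4. Without prednisone replicates 2, 3 and 5 together, the libraries with the low sums, 21 genes rose and 233 fell. Of 139 called genes named by the rule, 77 stayed called in all 20 refits that left out 1 library each, and 51 of these also under 7 other settings, which are the 4 alternatives of scaling and covariate (median-of-ratios, quantile, length and GC, a fat tissue score), another pseudocount, no filter, and a fit of the 10 libraries alone. A call that did so is said below to have held throughout. The fit without prednisone replicates 2, 3 and 5 together is not among these settings. There 40 of the 139 kept their call, so a call that held throughout may have been lost in it.

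**Figure D1:**
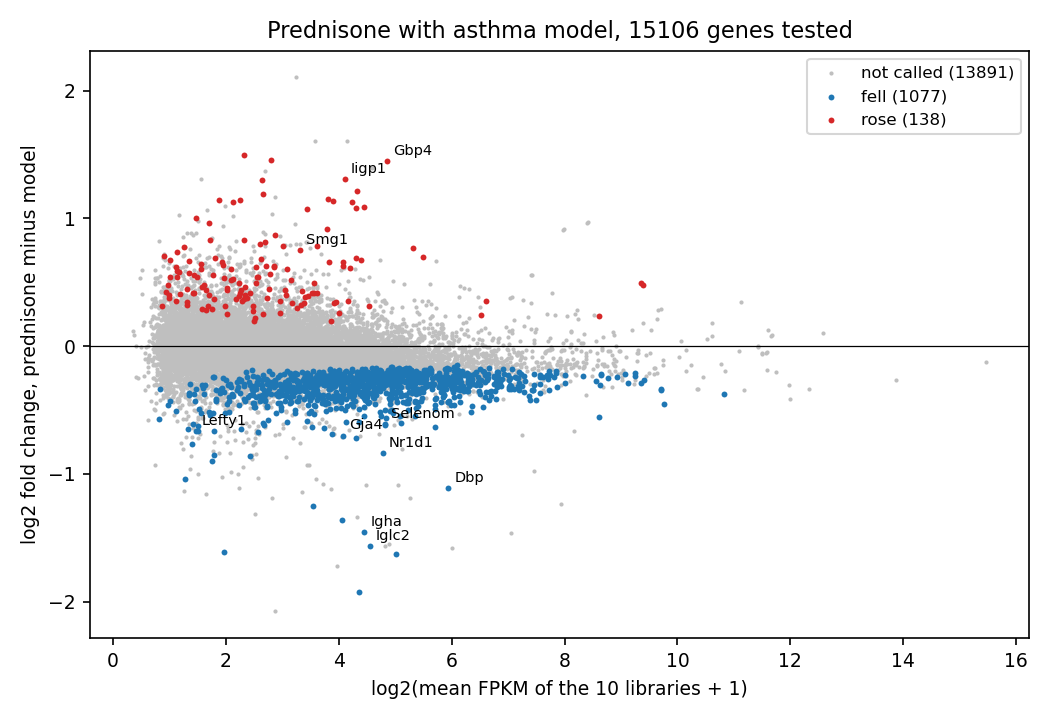
Each point is 1 of 15106 genes, with log2(mean FPKM of the 10 libraries + 1) on the x axis and its log2 fold change, prednisone minus model, on the y axis. The 1077 called falls (blue) lie mostly between 0 and -1, and the 138 called rises (red) reach further for their number, with Gbp4 at 1.45.

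The clearest rise was in 2 families of GTPases that interferons induce in many cell types. Guanylate-binding proteins (GBPs) and immunity-related GTPases (IRGs) gather on vacuoles that hold bacteria or parasites and help to break them open. In the prednisone lungs 7 of 10 tested guanylate-binding protein genes rose and 0 fell, with a median log2 fold change of 0.85, and 7 of 9 tested immunity-related GTPase genes rose and 0 fell, with a median of 0.92. Over all genes, 0.914% rose and the median was -0.05. Gbp11 was the only member of either list that did not pass the filter on low values. Here and below, the IRG list and its counts include Gvin1, which encodes a very large interferon-inducible GTPase rather than an IRG proper.

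The genes are clustered in the genome, with Gbp4, Gbp6, Gbp8, Gbp9 and Gbp10 on chromosome 5, Gbp2, Gbp2b, Gbp3, Gbp5 and Gbp7 on chromosome 3 and most IRG genes on chromosome 11. Their promoters are known for 2 motifs: the interferon-stimulated response element (ISRE), searched here as GAAA, any 2 bases and GAAA on either strand, which binds factors of the IRF family, and the gamma-activated site (GAS), searched as TTCNNNGAA, which reads the same on both strands and serves the response to interferon gamma. In RefSeq windows of GRCm38.p6 that run from 250 bases before to 50 bases after each gene's start, 3.44% of 32851 windows held the ISRE letters and 8.3% the GAS letters. Of the 14 called GBP and IRG genes, 8 matched a RefSeq window, and 8 of those held the ISRE letters and 5 the GAS letters. Here and below a gene counts if any of its windows held the letters, whereas the shares are of single windows. Those 5 hold both motifs, and 4 of them are shown, with the motifs in capitals, 5' to 3' on the gene's strand. Tgtp1, the fifth, is left out as the near-identical copy of Tgtp2. The 4 windows lie at chr3:142530086-142530385 (plus strand), chr11:49064163-49064462 (minus strand), chr11:58199306-58199605 (plus strand) and chr11:58214727-58215026 (plus strand).
Gbp7: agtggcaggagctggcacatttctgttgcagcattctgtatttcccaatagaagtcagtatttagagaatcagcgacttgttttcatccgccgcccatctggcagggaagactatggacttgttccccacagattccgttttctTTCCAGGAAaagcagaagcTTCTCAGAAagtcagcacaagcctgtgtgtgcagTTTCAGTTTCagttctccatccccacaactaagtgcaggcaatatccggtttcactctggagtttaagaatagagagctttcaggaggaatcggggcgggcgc
Tgtp2: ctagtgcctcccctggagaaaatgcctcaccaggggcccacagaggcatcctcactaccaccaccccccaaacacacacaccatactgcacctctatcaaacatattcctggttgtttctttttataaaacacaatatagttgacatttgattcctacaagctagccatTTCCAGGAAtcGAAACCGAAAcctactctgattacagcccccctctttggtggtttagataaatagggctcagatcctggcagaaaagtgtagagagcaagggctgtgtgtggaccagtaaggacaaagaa
Igtp: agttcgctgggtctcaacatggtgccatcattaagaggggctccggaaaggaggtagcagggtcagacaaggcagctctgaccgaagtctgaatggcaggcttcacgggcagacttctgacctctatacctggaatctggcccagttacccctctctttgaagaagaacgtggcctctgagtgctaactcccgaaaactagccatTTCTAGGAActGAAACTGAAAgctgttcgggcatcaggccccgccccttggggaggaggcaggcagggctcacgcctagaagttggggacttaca
Irgm2: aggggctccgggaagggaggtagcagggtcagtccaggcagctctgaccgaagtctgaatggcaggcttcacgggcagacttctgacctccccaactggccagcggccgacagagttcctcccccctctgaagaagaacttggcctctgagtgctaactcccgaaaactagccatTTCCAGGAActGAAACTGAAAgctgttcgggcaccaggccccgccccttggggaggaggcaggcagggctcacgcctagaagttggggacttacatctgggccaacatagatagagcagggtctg
In Tgtp2, Igtp and Irgm2 the GAS letters stand directly upstream of the ISRE letters, with the ISRE match starting at position -70, -34 and -64 from the gene's start. In Gbp7 the ISRE match starts at -53 and the 2 GAS matches at -106 and -87. A match describes the sequence and does not show that a factor was bound in these lungs.

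Gbp4 (chromosome 5, 105115767 to 105139586, minus strand) was at 27.5, 39.98, 66.1, 61.6 and 16.8 FPKM in prednisone replicates 1 to 5, against 12.45, 13.7, 11.9, 15.2 and 12.9 FPKM in model replicates 1 to 5. Its log2 fold change was 1.45 ± 0.337 (SE, adjusted p = 0.0144). All 5 prednisone libraries lay above all 5 model libraries, with replicates 3 and 4 highest and replicate 5 close to the model. Gbp7 (chromosome 3, 142530342 to 142550149, plus strand) was at 18.2, 23.8, 34.6, 36.1 and 14.1 FPKM in prednisone libraries, against 10.6, 10.3, 9.42, 10.4 and 11.0 FPKM in model libraries (log2 fold change 1.13 ± 0.197, SE; adjusted p = 0.00462). Iigp1 (chromosome 18, 60376027 to 60392634), which encodes an IRG that acts on the parasite vacuole, was at 15.3, 24.5, 33.2, 33.4 and 12.7 FPKM in prednisone libraries, against 9.32, 11.5, 7.78, 8.15 and 5.94 FPKM in model libraries (log2 fold change 1.31 ± 0.241, SE; adjusted p = 0.00621). The order of the prednisone libraries was alike in these genes: replicates 3 and 4 high, 1 and 2 between, 5 low.

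The other GBP genes that rose were Gbp10 (5.65 ± 2.58 FPKM with prednisone and 1.83 ± 0.304 FPKM in the model, SD, n = 5 each), Gbp6 (5.14 ± 2.75 FPKM with prednisone and 1.59 ± 0.145 FPKM in the model), Gbp9 (16.5 ± 5.16 FPKM with prednisone and 9.76 ± 1.29 FPKM in the model), Gbp2b (21.6 ± 6.21 FPKM with prednisone and 13.3 ± 0.864 FPKM in the model) and Gbp3 (19.8 ± 6.86 FPKM with prednisone and 11.9 ± 1.14 FPKM in the model). The spread among prednisone libraries was several times that among model libraries in each of these pairs. Of the members that did not pass, Gbp5 had a log2 fold change of 1.03 (adjusted p = 0.0859), Gbp8 of 0.40 and Gbp2 of 0.32. Gbp4, Gbp7, Gbp10 and Gbp6 held throughout. The guanylate-binding protein list had 4 calls without prednisone replicate 3 and 4 without prednisone replicate 4, 4 with no filter, in the fit of prednisone and model libraries alone and with the fat score, and 3 without prednisone replicates 2, 3 and 5. Among its called members, Gbp9 was not called without model replicate 3 or 5 or prednisone replicate 2, 3 or 4, nor Gbp2b without prednisone replicate 3 or 4. Gbp3, at an adjusted p of 0.0498, was called in 4 of the 20 refits that left out 1 library.

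Among the IRG genes, Tgtp2 was at 27.4 ± 11.7 FPKM with prednisone and 10.4 ± 1.35 FPKM in the model (log2 fold change 1.21 ± 0.231, SE; adjusted p = 0.00713). Tgtp1, its near-identical copy, had a log2 fold change of 1.15, Igtp of 1.09, Irgm2 of 0.92, Gvin1 of 0.87 and Irgm1 of 0.68, all called. Igtp (Irgm3) and Irgm1 encode regulators that sit on the cell's own membranes in mice. Igtp was at 22.6, 24.1, 47.5, 42.1 and 11.4 FPKM in prednisone libraries, against 11.7, 12.2, 12.1, 10.7 and 12.6 FPKM in model libraries, so that replicate 5 lay inside the model range. Ifi47 had a log2 fold change of 0.60 (adjusted p = 0.0651). Iigp1, Tgtp2, Tgtp1, Irgm2 and Gvin1 held throughout, and Igtp was not called without prednisone replicate 3 or 4. The summed FPKM of the 9 immunity-related GTPases was 129, 165, 251, 229 and 86.1 in prednisone replicates 1 to 5, and 74.3 to 87.7 in model libraries. SMD libraries had sums of 73.0 to 144 FPKM and control libraries of 59.3 to 72.9 FPKM.

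Several of these genes share sequence or overlap a neighbour, and the sources used here do not say how such reads were counted. Gbp4 and Gbp9 overlap each other and Gbp8, Gbp6 and Gbp10 overlap Gm43302, Gbp7 overlaps the pseudogene Gm43802, and Tgtp1 and Tgtp2 are near-identical, so the level of each single gene is uncertain. Iigp1, for which no overlapping annotated gene was found, rose as well.

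**Figure D2:**
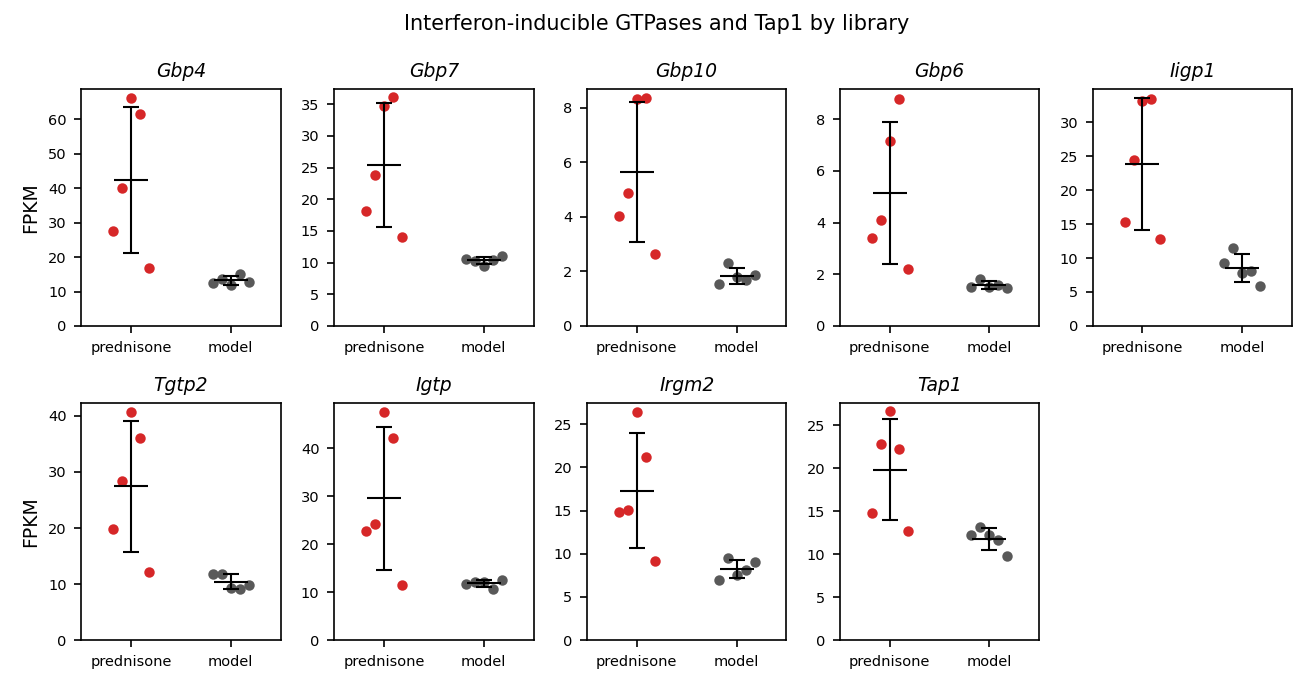
FPKM of 8 interferon-inducible GTPase genes and Tap1 in each of 5 prednisone (red) and 5 model (grey) libraries, with the mean as a horizontal line and the SD as error bars. The prednisone libraries spread widely, with replicates 3 and 4 highest in most panels and replicate 5 lowest, whereas the model libraries lie close together.

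Of the signal transducers above these genes, Stat2 had a log2 fold change of 0.39 (adjusted p = 0.066), Irf9 of -0.05, Jak1 of 0.01 and Ifnar1 of 0.01. Irf1, a factor that acts on GBP promoters, was at 43.7 ± 8.86 FPKM with prednisone and 40.04 ± 4.65 FPKM in the model (log2 fold change 0.11, adjusted p = 0.656).

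Interferon gamma itself (Ifng) stayed under the filter, at 0.317, 0.304, 0.297, 0.575 and 0.357 FPKM in prednisone libraries and 0.347, 0.162, 0.259, 0.0558 and 0.0723 FPKM in model libraries. Cxcl9, a chemokine induced by it, was at 0.698 ± 0.361 FPKM with prednisone and 0.363 ± 0.168 FPKM in the model, and was not tested. Cxcl10 was tested and did not pass, at 1.16 ± 0.211 FPKM with prednisone and 0.579 ± 0.288 FPKM in the model (log2 fold change 0.47, adjusted p = 0.0741).

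Of 31 tested genes induced by type I interferon, 4 rose (12.9%, against 0.914% of all genes), 0 fell and all 31 had a positive log2 fold change, with a median of 0.23. The antiviral RNA sensor Ifit1 was at 5.68, 6.25, 5.83, 6.40 and 5.58 FPKM in prednisone libraries, against 2.88, 4.36, 3.57, 3.00 and 3.97 FPKM in model libraries (log2 fold change 0.62 ± 0.119, SE; adjusted p = 0.00715). Its prednisone values lay close together, unlike those of the GTPases. Ifi44 (0.83), Parp14 (0.39) and Samd9l (0.34) also rose, whereas Isg15 (0.37, adjusted p = 0.284) and Irf7 (0.27, adjusted p = 0.343) did not pass. Ifit1 held throughout. Parp14 stayed called without any single library, Samd9l was called in 14 and Ifi44 in 4 of the 20 refits, and the list had 2 calls without model replicate 3, prednisone replicate 2 or prednisone replicate 3. It also had 2 with no filter, in the fit of prednisone and model libraries alone, with the fat score and after the length and GC correction, and 0 without prednisone replicates 2, 3 and 5 together.

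In the MHC class I pathway, which shows peptides to CD8 T cells, 2 of 19 tested genes rose (10.5%, against 0.914% of all genes). The peptide transporter Tap1 was at 14.8, 22.8, 26.7, 22.2 and 12.7 FPKM in prednisone libraries, against 12.3, 13.2, 12.2, 11.6 and 9.77 FPKM in model libraries (log2 fold change 0.66 ± 0.166, SE; adjusted p = 0.0216), highest in prednisone replicate 3 and lowest in replicate 5, which lay inside the model range. H2-T23, a non-classical class I gene, had a log2 fold change of 0.35. B2m (0.21), H2-K1 (0.22) and the immunoproteasome subunits Psmb8 (0.13) and Psmb9 (0.23) did not pass, with adjusted p of 0.0745, 0.433, 0.544 and 0.314. The 2 calls fell to 1 without model replicate 2, 3, 4 or 5 or prednisone replicate 1 and to 0 without prednisone replicate 2, 3 or 4, and the count was 4, 6 and 5 with median-of-ratios scaling, quantile normalization and the length and GC correction. It was 0 with no filter, in the fit of prednisone and model libraries alone, with the fat score as a covariate and without prednisone replicates 2, 3 and 5. None of 12 tested MHC class II genes was called, with a median of -0.04 that turned to 0.00, 0.07 and 0.06 under the 3 scalings.

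Heat shock chaperones, which refold damaged proteins and, in the case of Hsp90, hold the glucocorticoid receptor ready for its ligand, were the other group with several rises. Of 15 tested, 4 rose (26.7%, against 0.914% of all genes) and 1 fell (6.67%, against 7.13%), with a median log2 fold change of 0.31. Hspa1b and Hspa1a, neighbouring copies of inducible Hsp70 on chromosome 17, were at 19.0 ± 5.57 FPKM with prednisone and 8.63 ± 4.47 FPKM in the model, and at 13.6 ± 3.36 FPKM with prednisone and 6.21 ± 2.90 FPKM in the model (SD, n = 5 each). Hspa1a was at 17.5, 8.29, 14.25, 14.8 and 12.97 FPKM in prednisone libraries and 3.80, 5.67, 9.15, 3.13 and 9.27 FPKM in model libraries (log2 fold change 1.08 ± 0.26, SE; adjusted p = 0.0176). Prednisone replicate 2 lay inside the model range, and 4 of 5 prednisone libraries lay above it.

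Hsph1 (Hsp110) was at 60.8, 37.7, 43.9, 53.9 and 49.1 FPKM in prednisone libraries and 23.4, 27.5, 32.95, 19.9 and 40.9 FPKM in model libraries (log2 fold change 0.77 ± 0.185, SE; adjusted p = 0.0173). Hspa4l rose by 0.42 without overlap. The small chaperone Cryab fell, with a log2 fold change of -0.33. Dnajb1 did not overlap between the groups (23.5 ± 1.46 FPKM with prednisone and 16.2 ± 3.03 FPKM in the model) but had an adjusted p of 0.0532, and Hsp90aa1 had a log2 fold change of 0.36 (adjusted p = 0.0966). Levels in SMD and control libraries were lower than in both groups for Hspa1b (2.58 and 4.46 FPKM), Hspa1a (2.09 and 3.37 FPKM) and Hsph1 (16.6 and 18.1 FPKM). Hspa1a, Hsph1 and Hspa4l stayed called without any single library, and Hspa1b was not called without model replicate 1 or prednisone replicate 1. Leaving out prednisone replicates 2, 3 and 5 together left 1 rise. There were 6 rises without model replicate 5 or prednisone replicate 2, and the fall of Cryab was lost without model replicate 3 or 5 or prednisone replicate 2, 3 or 4. Of the 5 called chaperone genes, 4 matched a RefSeq window and 1, Hsph1, held the letters of a heat shock element (GAA, any 2 bases, TTC, any 2 bases and GAA, on either strand), which 0.603% of all windows hold.

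The other large rises belong to no single family. Serpina3f, a serine protease inhibitor, was at 2.84, 2.45, 7.16, 6.60 and 1.81 FPKM in prednisone libraries, against 1.24, 0.834, 1.07, 1.44 and 1.12 FPKM in model libraries (log2 fold change 1.14 ± 0.24, SE; adjusted p = 0.00944), again highest in replicates 3 and 4. Fcgr4, an activating receptor for IgG on myeloid cells, was at 6.94 ± 1.54 FPKM with prednisone and 4.11 ± 0.742 FPKM in the model (log2 fold change 0.63). Mrc1, the mannose receptor of macrophages, was at 12.6 ± 1.56 FPKM with prednisone and 9.14 ± 0.694 FPKM in the model (log2 fold change 0.42), and was the only called gene among 16 tested of alveolar and alternatively activated macrophages, whose list had 2 rises without control replicate 4 or prednisone replicate 4. Serpina3f, Fcgr4 and Mrc1 held throughout. Without the prednisone libraries of low sum, however, that macrophage list had 0 rises, so Mrc1 was not called there. The median of the list was -0.21 in that fit, against 0.07 in the fit of all libraries.

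Smg1, a kinase that starts nonsense-mediated decay of faulty transcripts, was at 10.03, 11.5, 12.3, 10.6 and 12.2 FPKM in prednisone libraries, against 5.49, 5.56, 5.17, 9.89 and 6.27 FPKM in model libraries (log2 fold change 0.75 ± 0.146, SE; adjusted p = 0.00715). Model replicate 4 stood apart from the other 4 model libraries and close to the prednisone libraries. Smg1 held throughout, and no other of 15 tested genes of decay and related kinases was called, with 2 rises without control replicate 1 or 4, SMD replicate 2 or model replicate 4. Zfp973, a zinc finger gene, was at 3.29 ± 0.706 FPKM with prednisone and 1.22 ± 0.566 FPKM in the model (log2 fold change 0.96) and held throughout. Of 38 tested genes named Zfp900 to Zfp999, 3 rose (7.9%, against 0.914% of all genes), and 1 did without model replicate 1 or 3 or prednisone replicate 2, 3 or 5. Without prednisone replicates 2, 3 and 5 together this list and the decay list had 0 rises, so neither Smg1 nor Zfp973 was called there.

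Rin2, an exchange factor of endosomal Rab proteins, had a log2 fold change of 0.82, Mpp6, a scaffold protein, of 0.69, Fam161a, a protein of cilia, of 0.63, Mki67, a marker of dividing cells, of 0.54 and the helicase Dhx33 of 0.52. These 5 calls each ended without at least 3 single libraries. Rin2 (adjusted p = 0.045) was called in 5 of the 20 refits that left out 1 library, Mpp6 in 12, Fam161a in 17, Mki67 in 13 and Dhx33 in 13. Of 20 tested proliferation genes Mki67 was the 1 that rose, 17 had a positive log2 fold change and the median was 0.21. The list had 0 rises without model replicate 1, 2 or 3 or prednisone replicate 2 or 3, and 2 without control replicate 3 or prednisone replicate 1. Top2a, a topoisomerase of dividing cells, was at 3.36 ± 1.49 FPKM with prednisone and 1.36 ± 0.567 FPKM in the model (adjusted p = 0.0549), highest in prednisone replicate 5 at 5.69 FPKM.

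Dbp and Nr1d1, output and repressor of the circadian clock, fell in the prednisone lungs. The clock is a loop in which Clock and Arntl (Bmal1) switch on the Per, Cry and Nr1d1 genes, whose products switch them off again, and Dbp and Nfil3 pass the rhythm on in opposite senses. Dbp (chromosome 7, 45705088 to 45710203, plus strand) was at 23.6, 53.2, 46.2, 32.4 and 36.7 FPKM in prednisone libraries, against 64.4, 96.0, 101, 80.9 and 69.7 FPKM in model libraries (log2 fold change -1.11 ± 0.174, SE; adjusted p = 0.00299). Nr1d1 (REV-ERB alpha) was at 13.5, 23.2, 23.1, 14.9 and 19.3 FPKM in prednisone libraries, against 28.0, 39.3, 39.3, 31.7 and 31.3 FPKM in model libraries (log2 fold change -0.84 ± 0.146, SE; adjusted p = 0.0047). Neither gene overlapped between the groups. Nfil3, a repressor that binds the same sites as Dbp, rose to 2.67, 2.48, 2.83, 2.63 and 2.17 FPKM in prednisone libraries, against 1.78, 1.36, 1.15, 1.74 and 1.74 FPKM in model libraries (log2 fold change 0.48 ± 0.091, SE; adjusted p = 0.00713). The 3 calls held throughout.

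Of 14 tested clock repressors and clock output genes, 3 fell (21.4%, against 7.13% of all genes), 0 rose and 11 had a negative log2 fold change, with a median of -0.20. Nfil3 was not in this list. It was counted with the core clock activators, where it was the 1 of 4 tested that rose (25%, against 0.914% of all genes). Ciart, an inhibitor of Clock and Arntl, was the third that fell, at 9.75, 9.68, 10.8, 8.66 and 9.58 FPKM with prednisone and 9.31, 11.2, 13.5, 15.0 and 17.1 FPKM in the model (log2 fold change -0.39, adjusted p = 0.0443). The groups overlap, and it was called in 7 of the 20 refits without 1 library. The other members did not pass: Hlf (-0.20), Tef (-0.17) and Nr1d2 (-0.21), with Per1 at 0.06, Per2 at 0.19, Per3 at -0.03 and Cry1 at -0.13. Per3 changed sign with median-of-ratios scaling (0.02) and quantile normalization (0.06). Clock had a log2 fold change of 0.25 (adjusted p = 0.304), while Arntl (0.301 ± 0.0312 FPKM with prednisone and 0.261 ± 0.0481 FPKM in the model) and Npas2 were under the filter. No time of collection is known here, and a difference in the hour of collection and a difference made by the drug cannot be told apart in these levels. Dbp overlaps Sphk2 and Nr1d1 overlaps Thra on the opposite strand, and neither partner was called.

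Clock and Arntl bind the E-box, searched as CACGTG, which 7.15% of the 32851 RefSeq windows hold. Dbp, Nr1d1 and Ciart each matched a window, and 1 of these 3 genes held it there. The windows of Dbp and Nr1d1 did not hold these letters. That of Ciart, the call of the 3 that was lost in most refits, holds 3 E-boxes and is shown for them, at chr3:95882179-95882478 (minus strand, E-boxes in capitals, starting at -116, -58 and -44).
Ciart: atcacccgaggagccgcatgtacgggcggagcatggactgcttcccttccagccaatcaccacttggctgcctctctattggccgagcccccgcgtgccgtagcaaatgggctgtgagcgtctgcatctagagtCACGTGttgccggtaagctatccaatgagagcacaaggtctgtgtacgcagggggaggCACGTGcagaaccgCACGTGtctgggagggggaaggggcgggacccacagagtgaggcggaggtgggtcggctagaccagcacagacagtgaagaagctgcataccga

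The furthest falls were in immunoglobulin genes. Immunoglobulins are made in bulk by plasma cells, so in whole lung fewer plasma cells and less RNA per cell cannot be told apart, a limit that holds for every cell type marker here. Of 19 tested genes of plasma cells and of constant regions, 2 fell (10.5%, against 7.13% of all genes), 17 had a negative log2 fold change and the median was -0.47. Iglc2, the lambda 2 constant region, was at 13.5, 17.99, 5.98, 6.30 and 7.70 FPKM in prednisone libraries, against 76.4, 32.9, 19.3, 20.1 and 23.6 FPKM in model libraries (log2 fold change -1.57 ± 0.349, SE; adjusted p = 0.0126). Igha, which encodes the IgA heavy chain constant region, was at 6.10, 17.2, 10.9, 6.51 and 9.14 FPKM with prednisone, against 69.0, 30.7, 13.01, 25.5 and 21.2 FPKM in model libraries (log2 fold change -1.46 ± 0.387, SE; adjusted p = 0.0266). Model replicate 1 was the highest library for both. Iglc2 held throughout, and Igha was not called without model replicate 1 or 2 or prednisone replicate 1 or 4.

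Members below the threshold lay on the same side: Igkc, the kappa constant region, was at 114 ± 44.7 FPKM with prednisone and 235 ± 113 FPKM in the model (log2 fold change -0.98, adjusted p = 0.0762), Jchain, which joins IgA and IgM chains, at 21.7 ± 10.1 FPKM with prednisone and 52.7 ± 29.0 FPKM in the model (adjusted p = 0.102), Ighm at 48.5 ± 16.6 FPKM with prednisone and 72.2 ± 34.4 FPKM in the model (adjusted p = 0.469) and the plasma cell gene Mzb1 at 5.09 ± 1.26 FPKM with prednisone and 9.01 ± 4.54 FPKM in the model (adjusted p = 0.103). Levels in SMD and control libraries were near those with prednisone for Igkc (99.3 and 108 FPKM), Jchain (15.2 and 14.6 FPKM) and Mzb1 (5.10 and 5.10 FPKM). Over all 78 tested immunoglobulin segments, constant regions included, 9 fell, where 7.13% of all genes did. Iglc2 and Igha are among these 9. Of the 78, 0 rose and 72 had a negative log2 fold change, with a median of -0.52. The lambda segments Iglv2 (-1.92), Iglj2 (-1.63), Iglv1 (-1.36) and Iglj3 (-1.25) and the kappa segments Igkv4-74 (-1.61) and Igkv4-91 (-1.04), named after their values were seen, make up, with Iglc2 and Igha, 8 of the 9 called genes with a log2 fold change below -1. The count of 9 was 6 without control replicate 1, 3 or 5 or SMD replicate 4 or 5, 3 without model replicate 1 or 2 or prednisone replicate 4, 5 without prednisone replicate 1 or 3, 4 without prednisone replicate 5 and 14 without prednisone replicate 2. Without prednisone replicates 2, 3 and 5 together it was 0, with a median of -0.59. The plasma cell list had 4 falls without model replicate 5 or prednisone replicate 2, 4 with library weights, 1 with no filter, quantile normalization, the length and GC correction, the replicate block or the fit of prednisone and model libraries alone, and 0 without prednisone replicates 2, 3 and 5 together.

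Markers of the B cells from which plasma cells arise were not called. Of 17 tested, 0 changed and the median was -0.16, with Cd79a at 8.96 ± 3.27 FPKM with prednisone and 13.1 ± 4.29 FPKM in the model (adjusted p = 0.218). No gene was called among 23 tested of T cells, 10 of NK and cytotoxic cells, 15 of neutrophils, 6 of mast cells, basophils and eosinophils, 19 of C1q and interstitial macrophages, 12 of monocytes and 16 of dendritic cells, with medians between -0.14 and 0.14. Without single libraries, T cells had 1 fall (model replicate 5), monocytes 1 rise (prednisone replicate 4) and the mast cell list 1 rise (control replicate 4).

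A part of the vessel genes fell. Of 35 tested endothelial genes 9 fell (25.7%, against 7.13% of all genes), 0 rose and 34 had a negative log2 fold change, with a median of -0.22. Among the members that fell furthest are the connexins of arteries. Gja4 (connexin 37, chromosome 4, 127311421 to 127314039) was at 10.9, 10.8, 15.3, 10.1 and 12.4 FPKM in prednisone libraries, against 16.8, 22.5, 19.6, 20.1 and 20.1 FPKM in model libraries (log2 fold change -0.70 ± 0.117, SE; adjusted p = 0.00379). Tmem88, which restrains Wnt signalling, was at 3.58 ± 0.454 FPKM with prednisone and 6.32 ± 0.903 FPKM in the model (log2 fold change -0.67), Gja5 (connexin 40) at 10.3 ± 1.49 FPKM with prednisone and 15.2 ± 3.39 FPKM in the model (-0.51), the Notch target Hey1 at 24.5 ± 4.47 FPKM with prednisone and 34.6 ± 3.49 FPKM in the model (-0.50), the transcription factor Sox18 at 20.9 ± 3.97 FPKM with prednisone and 30.9 ± 5.14 FPKM in the model (-0.55) and Clec14a at 33.9 ± 4.49 FPKM with prednisone and 45.8 ± 1.85 FPKM in the model (-0.43). The endothelial markers Pecam1 (-0.13, and 0.03 with quantile normalization), Cdh5 (-0.16), Kdr (-0.07) and Vwf (-0.11) had smaller differences and did not pass. They do not stand for the whole list. Its summed FPKM was 1238 to 1563 in prednisone libraries and 1658 to 1864 in model libraries. At an unadjusted p under 0.05 (limma) 18 of the 35 were lower, against 2797 of all 15106 genes.

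Gja4 and Tmem88 held throughout. Gja5 was not called without model replicate 2 or 3 or prednisone replicate 1 or 4, nor Sox18 without model replicate 3. The endothelial count was 6 after median-of-ratios scaling, 2 after quantile normalization, 5 after the length and GC correction and 4 with the fat score in the fit, 5 with no filter and without prednisone replicates 2, 3 and 5, and 5, 4 and 5 without model replicate 2, model replicate 3 and prednisone replicate 4. Clec14a and Sox18 had higher means in control libraries than in both groups, at 59.5 and 35.4 FPKM. Tmem88 overlaps Naa38, which was not called.

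**Figure D3:**
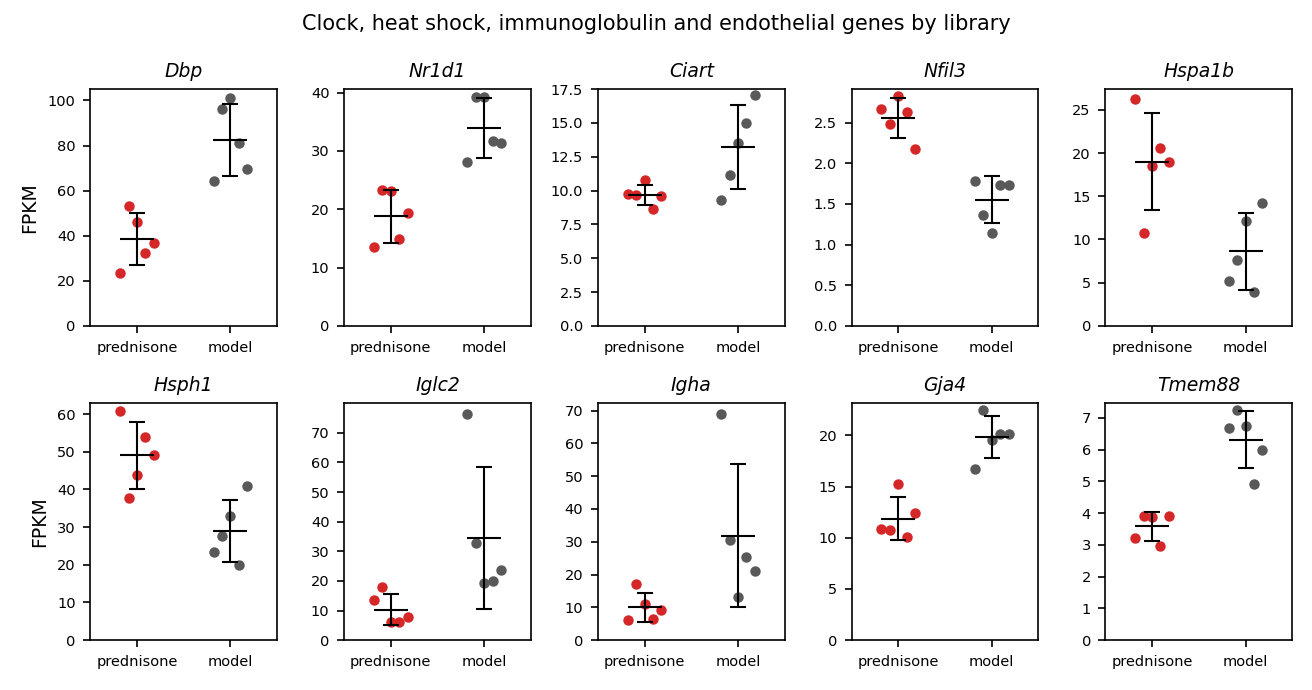
FPKM of 10 genes of the clock, heat shock, immunoglobulin and endothelial groups in each of 5 prednisone (red) and 5 model (grey) libraries, with the mean as a horizontal line and the SD as error bars. Dbp, Nr1d1, Nfil3, Iglc2, Gja4 and Tmem88 do not overlap between the groups, and Ciart, Hspa1b, Hsph1 and Igha do.

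Some genes of signals that shape vessels and mesenchyme fell. Lefty1, an inhibitor of Nodal of the TGF-beta family, was at 1.30, 1.12, 0.961, 1.20 and 1.04 FPKM in prednisone libraries, against 2.43, 2.16, 2.80, 2.64 and 1.87 FPKM in model libraries (log2 fold change -0.67 ± 0.0978, SE; adjusted p = 0.00231). Id3, an inhibitor of helix-loop-helix factors that BMP signals induce, was at 70.5, 55.6, 73.3, 59.0 and 70.7 FPKM with prednisone, against 88.0, 104, 97.0, 89.2 and 92.1 FPKM in model libraries (log2 fold change -0.51 ± 0.0882, SE; adjusted p = 0.00429). Neither overlapped between the groups and both held throughout. With Bmper (-0.44), Bmp6 (-0.35) and Smad7 (-0.29), 5 of 25 tested genes of Nodal, TGF-beta and BMP signalling fell (20%, against 7.13% of all genes) and 0 rose, with a median of -0.10. The count was 3 without model replicate 2 or 5, and 2 without model replicate 3 or prednisone replicate 2 or 4.

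Wnt2, a ligand of the lung mesenchyme, was at 4.26, 4.33, 4.78, 4.34 and 4.00 FPKM in prednisone libraries, against 6.84, 8.42, 7.90, 6.49 and 5.58 FPKM in model libraries (log2 fold change -0.58 ± 0.113, SE; adjusted p = 0.00727), and held throughout. With Sfrp1, a secreted Wnt antagonist (-0.37), 2 of 23 tested Wnt genes fell, 8.7% against 7.13% of all genes, and the count was 1 without model replicate 1 or 5 or prednisone replicate 3. Hoxa4, a homeobox gene, fell to 1.67 ± 0.164 FPKM in prednisone lungs, against 2.88 ± 0.305 FPKM in model lungs (log2 fold change -0.54), and held throughout.

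Of 15 tested genes of smooth muscle contraction, 2 fell (13.3%, against 7.13% of all genes). Acta2, the actin of smooth muscle, was at 38.1, 28.4, 32.2, 37.7 and 30.2 FPKM in prednisone libraries, against 40.5, 46.5, 48.2, 50.3 and 49.1 FPKM in model libraries (log2 fold change -0.49 ± 0.108, SE; adjusted p = 0.0119). Des, desmin, was the other that fell (-0.36), the list median was -0.32 and 14 of 15 members were negative, among them Myh11 (-0.25) and Cnn1 (-0.40), which did not pass. Des was not called without model replicate 2, 3 or 5 or prednisone replicate 2, 3 or 5, and Acta2 was not called with quantile normalization or the length and GC correction. The count was 1 with no filter, with median-of-ratios scaling, in the fit of prednisone and model libraries alone and with the fat score, and 0 without prednisone replicates 2, 3 and 5. Tbxa2r, the thromboxane receptor that constricts vessels and airways, was at 1.68 ± 0.323 FPKM with prednisone and 2.83 ± 0.517 FPKM in the model (log2 fold change -0.52), Ptgis, which makes the dilator prostacyclin, at 25.3 ± 3.29 FPKM with prednisone and 33.7 ± 1.86 FPKM in the model (-0.41) and Adrb1, the beta 1 adrenergic receptor, at 8.24 ± 1.07 FPKM with prednisone and 11.7 ± 0.954 FPKM in the model (-0.46). These 3 genes stayed called without any single library. Ptgis was the 1 of 21 tested genes of prostaglandin and leukotriene synthesis that fell (4.76%, under the 7.13% of all genes, with a list median of 0.01), and Adrb1 the 1 of 8 tested adrenergic and muscarinic receptors (12.5%, median -0.01). Ddah2, which degrades an inhibitor of nitric oxide synthesis, fell to 24.6 ± 2.40 FPKM with prednisone, against 35.9 ± 5.23 FPKM in the model (log2 fold change -0.52), and held throughout. The chemokine Cxcl12 (-0.38) fell to 30.4 ± 3.15 FPKM with prednisone, against 39.8 ± 2.301 FPKM in the model. Cxcl14 (-0.37) was called in the fit of all libraries and not without model replicate 1, 2 or 3 or prednisone replicate 1, 3 or 5. They were 2 of 21 tested chemokines (9.52%, against 7.13% of all genes).

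Epithelial markers were mostly not called. None of 22 tested genes of alveolar type 2 cells or of 12 tested genes of club cells was called. Sftpc was at 13580 ± 1334 FPKM with prednisone and 16290 ± 956 FPKM in the model (log2 fold change -0.27, adjusted p = 0.132), without overlap, and Scgb1a1 at 44010 ± 11050 FPKM with prednisone and 47050 ± 5970 FPKM in the model (-0.12, and 0 with quantile normalization). Aqp5, a water channel of alveolar type 1 cells (-0.40), was 1 of 16 tested (6.25%) and Tppp3, a protein of ciliated cells (-0.37), 1 of 20 tested (5%) that fell. Aqp5 was not called without model replicate 3. Without model replicate 4 the type 1 list had 2 falls, and without prednisone replicate 5 the type 2 list had 1.

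The largest set of falls was in genes for energy and protein turnover, each by a small amount. Of 76 tested nuclear genes of the respiratory chain, 46 fell (60.5%, against 7.13% of all genes), 0 rose and 75 had a negative log2 fold change, with a median of -0.24 against -0.05 over all genes. Of the 76, 36 were lower with prednisone without overlap between the groups, where 6.68% of all genes were. Ndufa11, a subunit of complex I, was at 46.6, 41.0, 45.6, 42.2 and 46.0 FPKM in prednisone libraries, against 57.7, 63.6, 61.4, 55.1 and 57.3 FPKM in model libraries (log2 fold change -0.41 ± 0.0675, SE; adjusted p = 0.00373). Ndufb7 was at 52.3 ± 4.41 FPKM with prednisone and 72.3 ± 7.05 FPKM in the model (-0.46), Uqcrq of complex III at 25.3 ± 0.963 FPKM with prednisone and 33.5 ± 1.59 FPKM in the model (-0.39) and Atp5l of the ATP synthase at 152 ± 10.2 FPKM with prednisone and 193 ± 12.0 FPKM in the model (-0.34). Ndufa11, Ndufb7 and Uqcrq held throughout.

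The remaining subunits of the chain are encoded on the mitochondrial genome, and none of their genes was called lower. Of 15 tested mitochondrial genes 0 fell, where 7.13% of all genes did, and with so few genes that count is near this share. The 1 that rose (6.67%, against 0.914% of all genes) was mt-Nd4l (0.50, called in 12 of the 20 refits without 1 library). The median of the list was 0.05. mt-Co1 was at 6351 ± 190 FPKM with prednisone and 5946 ± 589 FPKM in the model (log2 fold change 0.10, adjusted p = 0.552). The mitochondrial ribosome, whose proteins are nuclear, had 28 of 77 tested genes lower (36.4%) with a median of -0.21, among them Mrpl22 (-0.43), Mrps34 (-0.42) and Mrpl12 (-0.39), which held throughout. In the cytosolic ribosome 8 of 66 tested genes fell (12.1%, against 7.13% of all genes) with a median of -0.17.

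Of 31 tested subunits of the constitutive proteasome, which degrades tagged proteins, 19 fell (61.3%, against 7.13% of all genes), all 31 were negative and the median was -0.23. Psmc5 was at 48.6, 47.2, 46.8, 46.5 and 48.3 FPKM in prednisone libraries, against 59.6, 59.0, 61.0, 53.8 and 65.2 FPKM in model libraries (log2 fold change -0.32 ± 0.0569, SE; adjusted p = 0.005). The prednisone libraries differed from each other by less than 3 FPKM and all lay under the model libraries. Psmd3 (-0.34) also held throughout, and Psmb4 (-0.29) and Psma2 (-0.29) stayed called without any single library.

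Cholesterol synthesis fell as well, in 11 of 24 tested genes of cholesterol and fatty acid synthesis (45.8%, against 7.13% of all genes), with all 24 negative and a median of -0.30. Fdft1, squalene synthase, was at 9.70, 10.8, 10.5, 10.7 and 9.79 FPKM in prednisone libraries, against 14.7, 14.4, 15.1, 12.97 and 13.1 FPKM in model libraries (log2 fold change -0.41 ± 0.0703, SE; adjusted p = 0.00414). Msmo1 (-0.47), Mvk (-0.46), Sqle (-0.42), Idi1 (-0.39) and Hmgcs1 (-0.37) are enzymes of the same route and did not overlap between the groups. Fdft1, Msmo1, Mvk, Sqle and Idi1 held throughout. Fdps (-0.52) fell and was not called without model replicate 2 or 3.

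Antioxidant enzymes and selenoproteins, 2 lists that share members such as Gpx1 and Gpx4, held further falls. Of 35 tested glutathione and antioxidant genes 9 fell (25.7%, against 7.13% of all genes), median -0.15, and of 18 tested selenoprotein genes 7 fell (38.9%), median -0.20, with 0 rises in either. Selenom was at 22.99, 21.2, 20.01, 22.9 and 19.2 FPKM in prednisone libraries, against 34.7, 34.6, 33.0, 28.8 and 34.2 FPKM in model libraries (log2 fold change -0.61 ± 0.0919, SE; adjusted p = 0.00239). Prdx2, a peroxidase, was at 51.3, 51.9, 52.2, 51.3 and 51.4 FPKM with prednisone, against 65.0, 65.8, 66.8, 56.5 and 67.6 FPKM in model libraries (log2 fold change -0.31 ± 0.0489, SE; adjusted p = 0.00299). Both held throughout, as did Selenow (-0.39). Gpx4, which protects membranes from lipid peroxidation, fell to 205 ± 9.26 FPKM with prednisone, against 257 ± 21.2 FPKM in the model (-0.32). Sod3, the extracellular dismutase of lung (-0.44), and Gpx1 (-0.23) fell too and stayed called without any single library.

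Where 7.13% of all genes fell, smaller counts came from protein folding and secretion in the endoplasmic reticulum (5 of 29, 17.2%, with Atf4 at -0.39 and Sec61b at -0.35), the spliceosome core (5 of 26, 19.2%, with Sf3b5 at -0.37) and the general transcription factor TFIID with Mediator (7 of 38, 18.4%). Atf4, Sec61b and Sf3b5 held throughout. The endoplasmic reticulum count was 2 without model replicate 1, 2 or 3 and 3 without prednisone replicate 1, 2, 3 or 4. The spliceosome count was 2 without model replicate 2 or 3, 3 without model replicate 5 or prednisone replicate 3 or 5, and 9 without model replicate 4. The TFIID and Mediator count was 3 and 4 without model replicates 2 and 3. With quantile normalization the 3 counts were 2, 1 and 1, after the length and GC correction 3, 1 and 2, and without prednisone replicates 2, 3 and 5 1, 0 and 1. Taf10, a TFIID subunit, was at 8.37, 16.02, 16.4, 13.4 and 16.7 FPKM in prednisone libraries, against 24.4, 24.0, 22.7, 22.1 and 23.9 FPKM in model libraries (log2 fold change -0.72 ± 0.15, SE; adjusted p = 0.00888). It held throughout, and prednisone replicate 1 was the lowest library. Taf10 overlaps Ilk on the opposite strand, which was not called (-0.14). Among long chromatin regulators, 1 of 27 tested rose (Kmt2a, 0.255, called in 9 of the 20 refits without 1 library), 23 were positive and the median was 0.15.

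**Figure D4:**
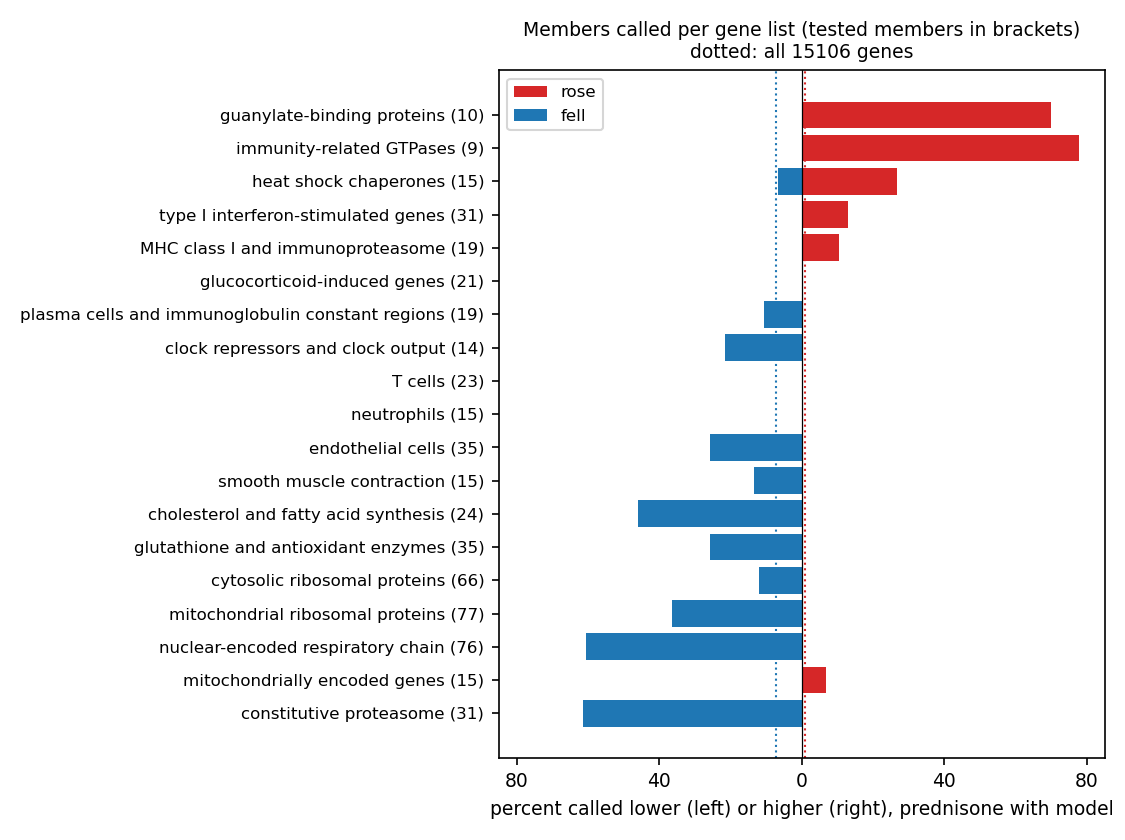
Percent of the tested members of 19 gene lists called lower (blue, left) or higher (red, right) in prednisone than in model libraries, with the number tested in brackets and dotted lines for the share of all 15106 genes (7.13% lower, 0.914% higher). Of the GBP and IRG lists, 70% and 77.8% of members were called higher, and of the respiratory chain and the proteasome 60.5% and 61.3% lower.

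Several of the lists with many falls consist largely of short genes, and the difference between the groups moved with gene length. In 5 classes of equal size by annotated exonic length, 10.1%, 13.2%, 7.33%, 3.78% and 1.23% fell, from the class of the shortest genes (12 to 1594 bases) to the longest (6843 to 41324 bases), with median log2 fold changes of -0.10, -0.11, -0.07, -0.03 and 0.04. The median length was 1737 bases in the respiratory chain list, 2255 in the mitochondrial ribosome list and 2808 in the proteasome list, 5086 in cholesterol and fatty acid synthesis and 14300 in the long chromatin regulators. After a correction for length and GC content in each library, 12 of 76 respiratory chain genes fell, 8 of 77 of the mitochondrial ribosome, 11 of 31 of the proteasome, 8 of 24 of cholesterol synthesis, 0 of 66 of the cytosolic ribosome, 4 of 35 antioxidant genes and 2 of 18 selenoprotein genes. With quantile normalization these counts were 3, 5, 2, 6, 0, 2 and 3, and without prednisone replicates 2, 3 and 5 they were 3, 3, 3, 6, 0, 2 and 1. The list medians stayed below 0 under both, at -0.15 and -0.11 for the respiratory chain. The part of gene length in these falls was not tested further.

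Single libraries also carried weight. The respiratory chain count was 24, 20, 20 and 26 without model replicates 1, 2, 3 and 5, and 30, 24 and 28 without prednisone replicates 2, 3 and 5. The mitochondrial ribosome count was 15, 14 and 14 without model replicates 1, 2 and 3, and the proteasome count 10 and 11 without model replicates 1 and 2. The cytosolic ribosome count was 1, 0, 2 and 2 without model replicates 1, 2, 3 and 5, 24 without model replicate 4, and 1, 5 and 1 without prednisone replicates 3, 4 and 5. Model replicate 4 had the lowest summed FPKM of the respiratory chain list among model libraries (5162, the other 4 lying between 5877 and 5943), against 4600 to 5085 FPKM in prednisone libraries.

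**Figure D5:**
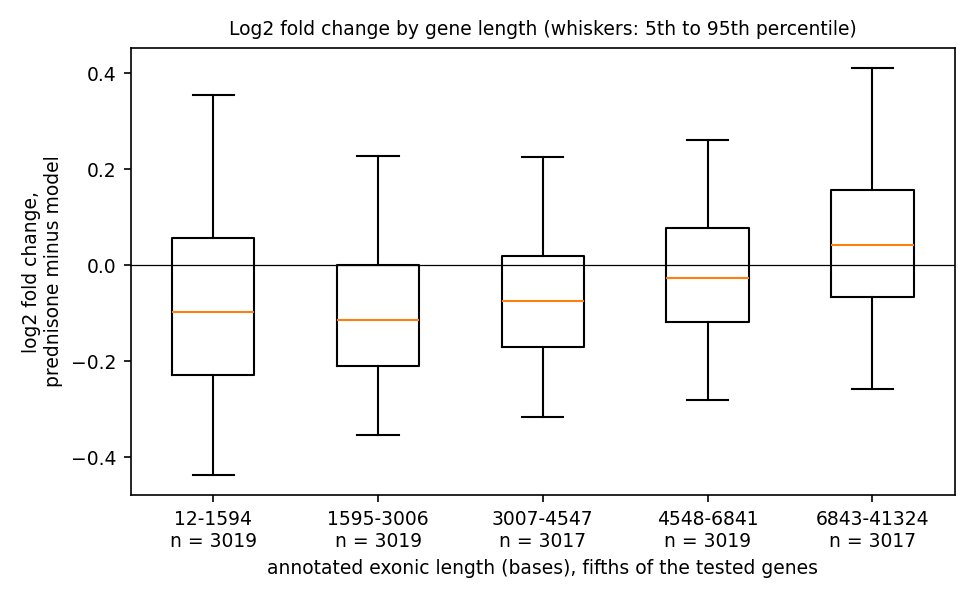
Log2 fold changes of the tested genes in 5 equal classes of annotated exonic length (x axis, bases), with the median as a line, the quartiles as a box and the 5th to 95th percentile as whiskers. The medians run between -0.11 in the second class and 0.04 in the class of the longest genes.

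Genes that glucocorticoids are known to induce were not called. Of 21 tested, 0 rose and 0 fell, 18 had a positive log2 fold change and the median was 0.21. That median was 0.13, 0.13 and 0.08 without model replicates 1, 2 and 3, 0.10 and 0.13 without prednisone replicates 1 and 4, and 0.55 without prednisone replicates 2, 3 and 5 together. With the replicate block 1 gene rose. Fkbp5, a co-chaperone of the receptor, was at 37.9, 14.0, 10.4, 20.8 and 19.6 FPKM in prednisone libraries, against 15.4, 16.1, 11.8, 23.3 and 30.4 FPKM in model libraries (log2 fold change 0.02 ± 0.371, SE; adjusted p = 0.978), with full overlap. Tsc22d3 (GILZ) was at 369, 237, 215, 323 and 271 FPKM with prednisone, against 242, 178, 204, 241 and 342 FPKM in model libraries (log2 fold change 0.23 ± 0.24, SE; adjusted p = 0.608). Zbtb16 was at 22.6, 12.3, 16.4, 23.7 and 15.8 FPKM with prednisone, against 2.91, 6.92, 16.85, 22.3 and 19.97 FPKM in model libraries (log2 fold change 0.61 ± 0.364, SE; adjusted p = 0.328), spread over most of its range within the model group. Cdkn1a had a log2 fold change of 0.67 (adjusted p = 0.101), Dusp1 of 0.25, Klf9 of 0.23, Sgk1 of 0.08 and Klf15 of 0.07. The standard errors of these genes, up to 0.371, leave differences of that size within the spread between libraries.

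SMD libraries had lower levels than both groups for Fkbp5 (3.49 FPKM), Tsc22d3 (113 FPKM) and Zbtb16 (1.20 FPKM), and control libraries lay near both (15.2, 224 and 15.8 FPKM). The receptor Nr3c1 was at 19.99 ± 1.92 FPKM with prednisone and 19.5 ± 0.904 FPKM in the model (log2 fold change 0.03 ± 0.0738, SE; adjusted p = 0.865). Hsd11b1, the enzyme that turns prednisone into its active form, was at 91.4 ± 16.1 FPKM with prednisone and 95.4 ± 13.2 FPKM in the model (log2 fold change -0.07, and 0.08 with quantile normalization). Of 15 tested genes of the receptor and its ligand's activation, 1 rose, the co-activator Ncoa1 (0.51, adjusted p = 0.0472), which was called in 7 of the 20 refits without 1 library.

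Genes of allergic airway inflammation were under the filter or were not called. Il13, the cytokine of mucus and airway reactivity, was listed at 0 in prednisone replicates 2 to 5 and at 0.0187 FPKM in replicate 1, against 0.0796, 0.0962, 0.024, 0.0963 and 0 FPKM in model libraries. Il4 was at 0.326, 0.403, 0.4, 0.284 and 0.382 FPKM with prednisone, against 0.512, 0.408, 0.376, 0.453 and 0.788 FPKM in model libraries. Il13, Il4, Il5, Muc5ac, Ccl24 and the eosinophil peroxidase Epx were all under the filter and not tested. Ccl17, a chemokine for T helper 2 cells, was at 4.94, 6.34, 6.59, 4.60 and 5.92 FPKM with prednisone and 12.2, 12.6, 4.83, 9.23 and 5.995 FPKM in the model (log2 fold change -0.51 ± 0.233, SE; adjusted p = 0.192), lower in the mean but overlapping.

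Chil3 (Ym1), a chitinase-like protein of macrophages, was at 51.6, 74.1, 73.7, 33.0 and 90.1 FPKM with prednisone and 55.3, 48.4, 28.0, 32.2 and 33.0 FPKM in the model (log2 fold change 0.66 ± 0.235, SE; adjusted p = 0.0884). Il33, an epithelial alarmin, had a log2 fold change of -0.22 (adjusted p = 0.318), Ccl11 (eotaxin) of -0.20, Muc5b of -0.06 and Retnla of 0.05. None of 10 tested type 2 cytokine and receptor genes, 10 tested mucus and allergic epithelium genes or 17 tested genes of inflammatory cytokines and NF-kB feedback was called, with medians of -0.03, -0.07 and -0.04. The last list had 1 fall without prednisone replicate 3.

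Tissue that a dissected lung carries along differed between libraries. All 10 tested fat markers were lower in the mean with prednisone, with a median of -0.83, and 0 were called. Adipoq was at 4.35, 1.26, 1.92, 2.97 and 0.767 FPKM in prednisone libraries, against 0.171, 15.9, 23.8, 5.46 and 3.85 FPKM in model libraries, and the fat list summed to 33.8 to 117 FPKM in prednisone libraries and 46.4 to 407 FPKM in model libraries. With the mean of these markers as a covariate, 58 genes rose and 485 fell, 4 of 10 GBP and 6 of 9 IRG genes rose, and 10 of 76 respiratory chain genes fell. Cardiac muscle markers had 0 calls of 10 tested and a median of -0.21, with Myh6 at 15.9 ± 6.14 FPKM with prednisone and 17.4 ± 3.73 FPKM in the model. No marker of red cells and platelets was called among 11 tested (median -0.22), and 1 fell without model replicate 5. The part of carried tissue in the differences between the groups was not tested beyond this covariate.

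The control and SMD libraries place the 40 largest changes beside the other groups, with the caution that these genes were chosen on the model libraries. For the 20 largest rises, the control mean was nearer to the model than to the prednisone mean in 20 of 20 genes and the SMD mean in 17 of 20. Gbp4 was at 30.7, 53.8, 16.8, 21.5 and 12.1 FPKM in SMD libraries and 12.5, 14.0, 12.4, 10.02 and 15.4 FPKM in control libraries, so that SMD replicates 1 to 4 lay within the prednisone range. For the 20 largest falls, the control mean was nearer to the model in 13 of 20 and the SMD mean in 15 of 20. Dbp was at 66.6, 86.3, 76.9, 72.3 and 64.6 FPKM in SMD libraries and 57.5, 81.3, 65.4, 54.8 and 64.8 FPKM in control libraries, all above the highest prednisone library (53.2 FPKM).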

How the data were processed

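Lung RNA of 20 libraries in 4 groups of 5 (prednisone, model, SMD, control) was extracted with TRIzol and sequenced on an Illumina NovaSeq, per the labels' protocols. The authors deposited 1 table of FPKM values for 54532 genes, and the submitters' processing notes name fastp, HISAT2, featureCounts, DESeq2 and GRCm38 without versions or roles. The annotation, the use of strand and the step that made the FPKM values are not stated in the sources. Depth is unknown: low values were not whole multiples of 1 read beyond chance, so precision rests on the spread between libraries. Of the genes, 54409 matched a symbol in GENCODE vM21 and 16574 had no value above 0.

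The 15106 genes that reached 1 FPKM in 5 of the 20 libraries were fitted on log2(FPKM + 1) with limma 3.58.1 in R 4.3.3, all 20 libraries sharing 1 estimate of spread with an intensity trend (16 residual degrees of freedom), and p-values were adjusted by Benjamini-Hochberg over all genes tested at 0.05. The step was tested on simulated data. Tables were made with Python 3.11.15 and pandas 2.3.3. Alternatives changed the pseudocount, filter, scaling, covariates, library weights and the libraries left out. Leaving out the 3 prednisone libraries with low sums was chosen after seeing the data.

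The members and the 62 gene lists were chosen with earlier results of these data known. Genes are named by rule: the 20 largest rises and 20 largest falls among called genes without overlap between the groups (predicted genes, antigen receptor segments, pseudogenes and small RNAs left out), per list described, the called members that changed most (6 at most), and 36 fixed genes. Other names (members that were not called, Irgm1, Hmgcs1, Top2a, Adipoq, segments, and partners that overlap a gene) were chosen after their values were seen. Replicate numbers were not used to pair the samples. Some genes are not reported here.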

Additional observations from a re-analysis of the deposited data

Results flagged for a closer look

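In 25 of 348 groups of 5 libraries of named genes, 1 library stood apart from the other 4 by Dixon's criterion (0.71 of the range), which chance meets in about 1 in 20 groups. Model replicate 4 was such a library in 12. It was high for Smg1 (9.889 FPKM), Kmt2a (5.5 FPKM) and Clock (4.02 FPKM), and low for Araf (27.41 FPKM), Psmb4 (105.5 FPKM), Psma2 (24.95 FPKM), Rpl13a (459.7 FPKM), Rpl18 (381.5 FPKM), Atp5l (172.0 FPKM), Fdps (22.4 FPKM), Prdx2 (56.46 FPKM) and Sephs2 (9.924 FPKM). In all 12 genes its value lay on the side of the prednisone libraries.

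Model replicate 5 was high for Zfp973 (2.211 FPKM), Tppp3 (289.0 FPKM), Selenok (69.42 FPKM) and Klf15 (38.3 FPKM). Model replicate 1 was high for Aup1 (50.39 FPKM), Psmd3 (31.86 FPKM) and Iglc2 (76.42 FPKM) and low for Gstm5 (7.871 FPKM). Among prednisone libraries, replicate 5 was high for Bmper (7.936 FPKM), replicate 4 for Ifng (0.5747 FPKM), replicate 1 for Il13 (0.01873 FPKM) and Npas2 (0.08959 FPKM), and replicate 2 for Epx (0.03364 FPKM). The last 4 genes were under the filter on low values.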

How the results depend on the processing

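The count of rises (138) was 80 in a fit of the prednisone and model libraries alone, 58 with the fat score as a covariate, 245 with library weights, 21 without the 3 prednisone libraries of low sum, and 66 to 257 over refits without 1 library. The count of falls (1077) was 651 with no filter, 495 after median-of-ratios scaling, 172 after quantile normalization, 630 in the fit of 2 groups, 485 with the fat score, 294 after the length and GC correction, 233 without those 3 libraries, and 538 to 1446 without 1 library. The cause was not tested. None of the 139 called named genes changed sign under these alternatives, and 105, 67, 73, 89 and 40 kept their call under median-of-ratios scaling, under quantile normalization, the length and GC correction, the fat score and without the 3 libraries.

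Log2 fold changes of genes that were not called changed sign as follows. With quantile normalization Hsd11b1 was at 0.0844, Per3 at 0.0638, Scgb1a1 at 0 and Pecam1 at 0.0269, and with median-of-ratios scaling Per3 at 0.0161. After the length and GC correction Nr3c1 was at -0.0225 and Fkbp5 at -0.0129, and with library weights Retnla at -0.0123. Without the 3 libraries Nr3c1 was at -0.099, Hsd11b1 at 0.0659, Sgk1 at -0.000932, Retnla at -0.0221 and Scgb1a1 at 0.262. Over refits without 1 library each, values ran for Nr3c1 from -0.0175 to 0.062, Hsd11b1 from -0.144 to 0.0277, Fkbp5 from -0.22 to 0.223, Klf15 from -0.0636 to 0.199, Sgk1 from -0.0287 to 0.156, Muc5b from -0.133 to 0.0409, Retnla from -0.0949 to 0.182 and Per3 from -0.0892 to 0.0437.

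Deviations from the group mean, of prednisone and model libraries with the same replicate number, had correlations of -0.18, 0.102, -0.0959, -0.0699 and -0.0265 for replicates 1 to 5. Libraries of unlike number had correlations from -0.245 to 0.218. These values show no sign of pairing by number, and with 5 libraries a group they cannot exclude it. With the replicate block, 121 genes rose and 953 fell, and 122 of the 139 named calls stayed. With no read counts, no limit by depth could be computed.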
